A study of Mus musculus with 8 samples.

Results

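Among 4 naive corneas of BALB/cN mice, replicates 1 and 4 carried abundant transcripts of the lens and of pigment cells, and replicates 2 and 3 did not. This pair of corneas was chosen by its measured crystallin and melanin transcripts, so its 2 corneas of 8 in the series are described here against the other 2 BALB/cN corneas, with 4 C57BL/6N corneas as a reference. Because the pair was selected on these values, no test was run between the pairs; sizes, complete separation and counts over all genes are given instead.

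BALB/cN is an albino inbred strain whose tyrosinase gene carries a mutation, and C57BL/6N is a pigmented black strain. All corneas are labelled naive, and no treatment, deletion or transgene was named for any of them. Total RNA was sequenced from strand-specific libraries, the methods state that the sequenced mice of both strains were male, and their age is not stated for these samples. The labels do not say whether the 4 corneas of a strain came from 4 mice, so every spread below is a spread between samples, which may be technical. Recovered reads summed to between 36.7 and 40.3 M (1 M is 1e6 reads) in the pair, between 38.8 and 41.2 M in the other BALB/cN corneas and between 29.7 and 37.0 M in C57BL/6N. BALB/cN replicate 2 and C57BL/6N replicates 3 and 4 stood apart in stromal transcripts: 18 keratocyte genes took 3900, 1920 and 1980 RPM (recovered reads for each 1e6 of a library) there, against 11900 to 16300 in the other 5 corneas.

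The lens is an avascular tissue behind the iris whose fibre cells fill with crystallins, small soluble proteins that give the lens its refractive index. Melanin is made in melanosomes by tyrosinase and its relatives Tyrp1 and Dct, in melanocytes of neural crest origin and in the pigmented epithelia of iris, ciliary body and retina. The cornea itself has a keratin-rich epithelium, a stroma of collagen and proteoglycans made by keratocytes, and an inner endothelium, and it holds neither crystallin-filled fibre cells nor blood vessels in its centre. A bulk sample cannot tell fewer cells of a type from less RNA in each of them.

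The values are the authors' regularized log (rlog) values, on a log2 scale and normalized for library size. The transformation pulls a gene with few reads towards its mean, so a difference in rlog understates the fold change of such a gene. Read numbers below were recovered from the rlog values by inverting the transformation, and 91.0% of those of the genes called here lay within 0.1 of a whole number. A gene was called when both corneas of the pair lay on the same side of both others and the difference of pair means was at least 1 on the rlog scale. Of 54532 genes in the table, 25402 whose rlog values averaged 0 or more were examined. Complete separation alone was common: 5499 genes (21.6%) were higher and 4699 (18.5%) lower in the pair. With the size added, 334 genes (1.31%) were called higher and 0 (0%) lower. Without replicate 3, 578 were called higher and 4 lower.

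Among the 334 called genes were structural genes of the lens, the melanin pathway, smooth muscle, blood vessels, nerve sheath and the anterior uvea, together with a cluster of proline-rich protein genes on chromosome 6. Their median difference was 1.43, and 96 of them differed by at least 2, 32 by at least 3 and 14 by at least 4. Of the 334 genes, 322 are protein-coding, 56 are on one of the 25 cell type lists and 278 are on none. The smallest difference called was 1.002 for Pax3, and the largest left out was 0.9997 for Adam11. The members of the lists closest to the filter on the mean were Cryga just inside it, at 0.078, and Opn1mw just outside it, at -0.237. The called genes took 9680 and 13000 RPM in replicates 1 and 4, 1110 RPM in replicate 2 and 4740 in replicate 3, and 7570, 6970, 1350 and 830 RPM in C57BL/6N replicates 1 to 4. This sum includes stromal genes such as Kera and Dcn and was low in each of the 3 stroma-poor corneas.

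**Figure D1:**
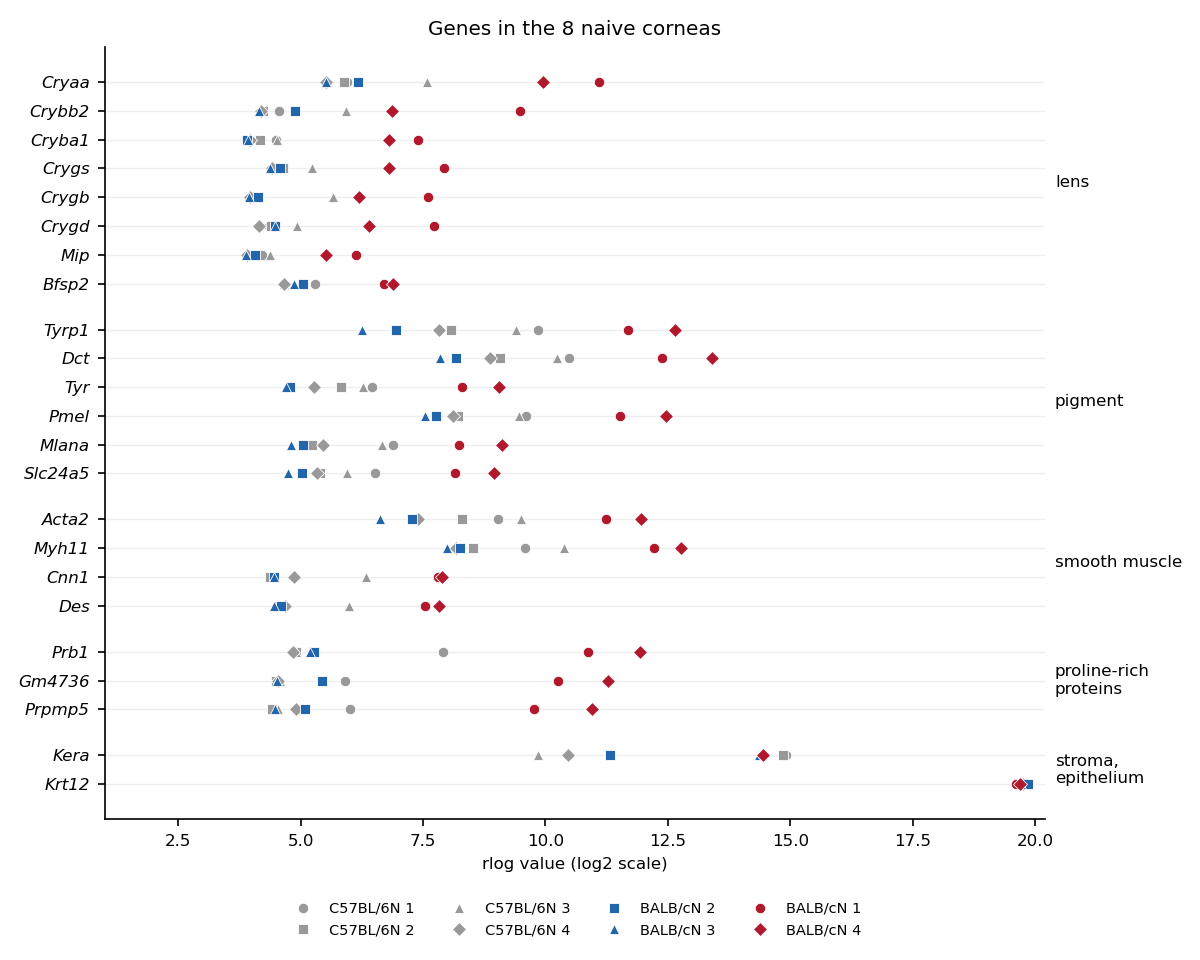
Rlog values (log2 scale, x axis) of 23 genes in each of the 8 corneas, with a symbol for each replicate number and red for the lens and pigment pair, blue for the other BALB/cN corneas and grey for C57BL/6N. In each lens, pigment, smooth muscle and proline-rich protein gene shown, both red points lie to the right of all others, whereas Kera separates the stroma-poor corneas and Krt12 hardly moves.

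Sequence upstream of lens and pigment genes is shown because large Maf factors act on crystallin genes through elements with the core TGCTGA, and Mitf acts on melanin genes through the E-box CATGTG. Both motifs were searched on both strands in the 250 bases before the RefSeq start (GRCm38.p6), and capitals mark each match. Mip (chr10:128225560-128225809, plus strand), the major water channel of lens fibres, and Tyr (chr7:87493513-87493762, minus strand) are shown whole. For Cryaa (chr17:31677811-31677840, plus strand) and Tyrp1 (chr4:80834155-80834184, plus strand), 30 bases around the match are shown, since another annotation starts these genes further upstream, so that the match lies inside the gene there.
Cryaa: gagcattccagcTGCTGAcggtgcagcctc
Mip: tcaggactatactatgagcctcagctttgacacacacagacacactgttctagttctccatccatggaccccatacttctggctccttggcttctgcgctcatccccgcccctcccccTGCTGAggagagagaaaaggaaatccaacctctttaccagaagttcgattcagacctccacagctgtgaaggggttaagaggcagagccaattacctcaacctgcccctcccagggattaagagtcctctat
Tyr: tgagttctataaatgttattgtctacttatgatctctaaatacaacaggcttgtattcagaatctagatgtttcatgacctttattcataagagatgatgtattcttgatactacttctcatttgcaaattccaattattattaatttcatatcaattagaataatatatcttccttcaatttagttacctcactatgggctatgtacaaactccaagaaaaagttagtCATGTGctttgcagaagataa
Tyrp1: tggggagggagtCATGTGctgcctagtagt

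The match began 108 bases before the start in Cryaa, 132 in Mip, 21 in Tyr and 46 in Tyrp1. Over 27025 genes with a promoter in the table, 18% held TGCTGA and 13.8% held CATGTG in this window. Among the 13906 genes examined here that had a promoter, the shares were 16.3% and 10.1%. TGCTGA was found in 10 of 15 crystallin genes with a promoter (66.7%), and CATGTG in all 3 melanin synthesis genes and in 5 of 7 melanosome genes. Among 245 called genes with a promoter, 49 held the first and 32 (13.1%) the second. A match is a match of letters and no measured binding site.

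Crystallins. All 16 crystallin genes passed the filter on the mean, 10 of them were called higher (background 1.31%) and none lower. The median difference of the list was 1.89 on the rlog scale, against 0.0 over all genes. These values chose the pair and are a description. Cryaa, which encodes the chaperone alpha-A crystallin, had 5264 and 1785 reads in replicates 1 and 4, and 53 and 17 in replicates 2 and 3. In the C57BL/6N corneas it had 33, 30, 170 and 14 reads, so all 4 lay far below the pair. The rlog difference was 4.67, and the ratio of mean normalized reads was 100. Crybb2, the beta crystallin with the most reads in replicate 1, had 2125 reads in replicate 1 and 191 in replicate 4, against 22 and 1 in the others. Replicate 1 thus stood well above replicate 4 in that gene.

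The other called crystallins had few or no reads outside the pair. Cryba1, a beta crystallin, had 545 and 279 reads in the pair and 0 in both other corneas, which makes the ratio at least 135 against a floor of 3 reads per library. Crybb1 had 243 and 109 reads against 0 and 0, at least 57.6-fold higher, and Cryba2 188 and 95 against 0 and 0, at least 46.5-fold higher. The gamma crystallins of the fibre core on chromosome 1 went the same way. Crygd had 688 and 169 reads against 11 and 10, Crygb 651 and 148 against 4 and 0, and Crygc 420 and 116 against 4 and 0. Crygs, the gamma crystallin of the lens cortex, had 744 and 229 reads against 11 and 4, a ratio of 64.3. The gamma crystallin genes are close copies of one another, so reads could be shared between them. Cryba4 had 440 and 182 reads against 42 and 39, a ratio of 7.54.

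The 6 crystallins not called were Cryab, Crybb3, Crygn, Cryga, Cryge and Crygf. Cryab, a heat-shock protein made in many tissues, had 4711 and 3814 reads in the pair and 2337 and 2963 in the others. It separated the pairs with a difference of 0.52, but replicates 2 and 3 differed by 0.33, more than the gap of 0.31. Crybb3 had 310 reads in replicate 1, but 116 in replicate 4 beside 108 and 91. Crygf had 56 reads in replicate 1 and 2 in replicate 4, Cryge 17 and 0, and neither had a read in replicates 2 and 3. Cryga had between 0 and 6 reads in every cornea and Crygn between 17 and 26.

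Lens fibres and lens factors. Of 16 fibre genes past the filter, 3 were called higher and none lower, with a list median of 0.29. Without the size, 10 were completely separated and higher and 3 lower (background 21.6% and 18.5%). The largest decrease was in Slc24a2, an ion exchanger gene, by -0.39, with 47 and 25 reads in the pair against 73 and 62. Mip had 252 and 111 reads in the pair against 6 and 0. Lgsn, which encodes lengsin, had 201 and 30 reads against 0 and 0, at least 37-fold higher, and Bfsp2, the beaded filament protein phakinin, had 259 and 282 against 25 and 14. Among the 13 called crystallin and fibre genes, Bfsp2 was the one with a higher value in replicate 4. Lim2, a membrane protein of fibres, had 85 and 17 reads in the pair against 3 and 0, but missed the size on the shrunken scale, with 0.71. Genes of the list with epithelial expression, among them Aqp5, Hspb1 and Fabp5, differed by between -0.20 and 0.02. Of 18 listed genes, Lenep and Birc7 did not pass the filter.

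Of 11 factors of lens development past the filter, Six3, a homeobox factor of the anterior neural plate and lens, was the one called. It had 232 and 306 reads in the pair and 1 in each of the others, at least 91-fold higher. Unlike the called crystallins, Six3 had a higher rlog value in replicate 4 (6.82) than in replicate 1 (6.44). Prox1, needed for fibre elongation, had 93 and 19 reads against 15 and 11. Foxe3, a factor of the lens epithelium, had 31 reads in replicate 1 and none in replicate 4. Pax6, which the corneal epithelium also uses, was at 15.60, 15.76, 15.58 and 15.58 in replicates 1 to 4, a difference of -0.08.

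Melanin synthesis. All 3 enzymes were called, and the list median was 4.88. Tyr, the rate-limiting enzyme, had 673 and 1171 reads in replicates 1 and 4, and 3 and 0 in replicates 2 and 3. In C57BL/6N it had 91, 42, 60 and 15 reads, so the pigmented strain lay between the BALB/cN pairs. The difference was 3.94, and the ratio was at least 314. Tyrp1, which acts on a later intermediate and stabilizes tyrosinase, had 6182 and 12257 reads against 58 and 11, a ratio of 281, with 1077, 198, 572 and 145 in C57BL/6N. Dct, the dopachrome tautomerase, had 9552 and 19526 reads against 179 and 107, a ratio of 105. In all 3 genes replicate 4 exceeded replicate 1, both exceeded every C57BL/6N cornea, and replicates 2 and 3 lay below every C57BL/6N cornea.

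Melanosome and melanocyte genes. Of 13 melanosome genes, 8 were called higher and none lower, with a list median of 1.32. Pmel, which forms the fibrils of the early melanosome, had 5210 and 10287 reads in the pair against 148 and 103, a ratio of 63.8. Mlana, a melanosome membrane protein, had 610 and 1208 reads against 9 and 1. The ion exchanger Slc24a5 had 610 and 1091 against 11 and 2, the transporter Oca2 312 and 481 against 8 and 1, and Slc45a2 96 and 231 against 2 and 0. These genes thus had nearly all of their BALB/cN reads in the pair. Trpm1, a channel gene whose intron holds a microRNA gene, had 5203 and 9265 reads against 611 and 400, a ratio of 14.8. Rab27a, which links melanosomes to actin, had 607 and 1027 against 212 and 195, and the receptor Gpr143 66 and 112 against 9 and 0. Mlph and the cystine transporter Slc7a11 differed by 0.80 and 0.67 and were not called. The general vesicle genes Bloc1s6, Hps1 and Rab38 differed by between -0.14 and 0.13.

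Among 7 genes of melanocyte identity, Sox10, Mitf and Pax3 were called. Mitf, the master factor of pigment cells, had 721 and 1288 reads in the pair, 175 and 172 in the others and between 92 and 173 in C57BL/6N. Sox10, shared by melanocytes and Schwann cells, had 527 and 956 against 43 and 113. Pax3, the gene nearest the size threshold, had 53 and 112 against 3 and 2. Kit, the receptor for stem cell factor, was at 12.87 to 13.14 on the rlog scale in all 4 BALB/cN corneas and differed by -0.14. The receptor gene Ednrb was low in replicate 2, the stroma-poor cornea, with 2482 reads in replicate 2 and 6242 to 6563 in the others, and its difference was 0.54. Tfec, a relative of Mitf, had 32 and 96 reads against 0 and 0, but its difference of 0.97 fell short of the size.

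**Figure D2:**
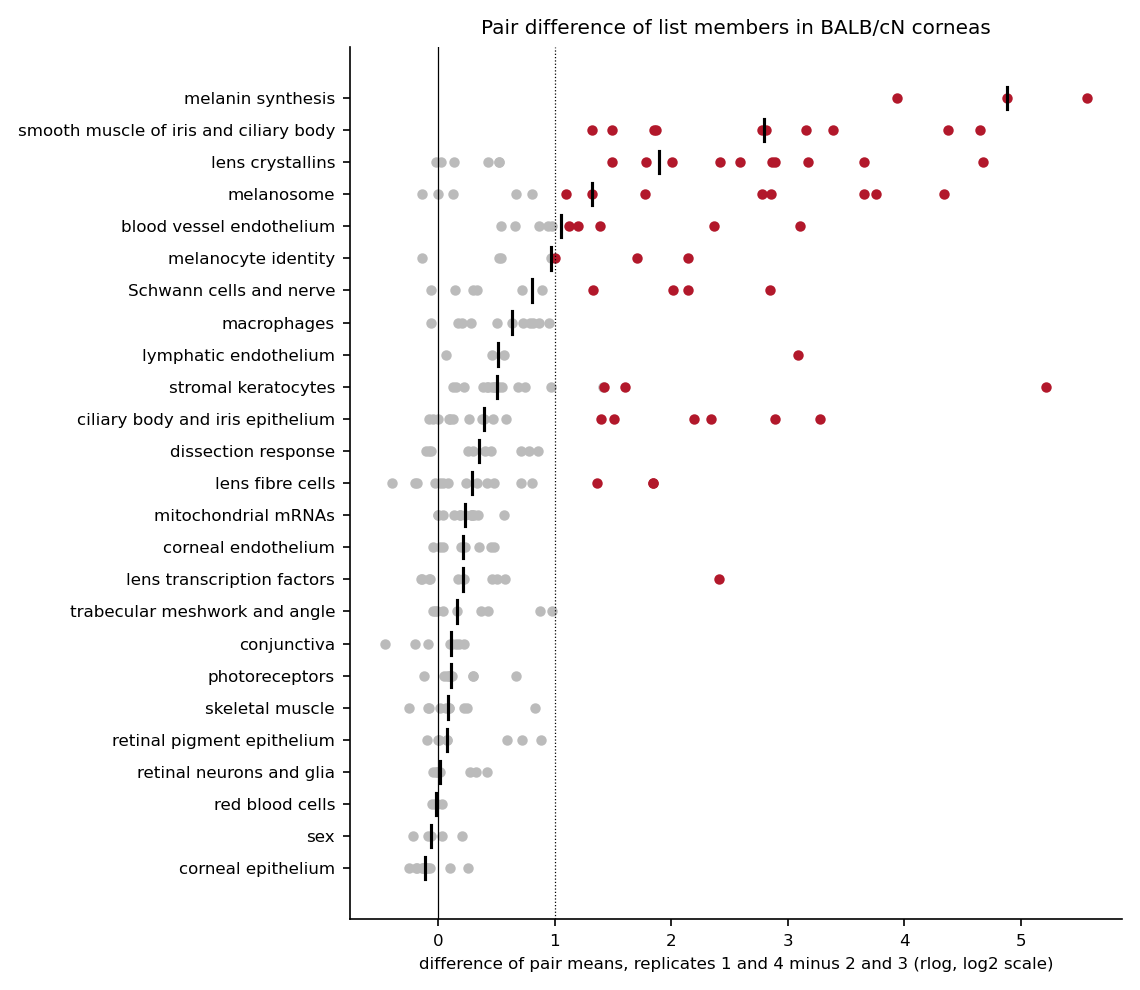
Difference of pair means (replicates 1 and 4 minus replicates 2 and 3, rlog on a log2 scale, x axis) of the members of 25 cell type lists that passed the filter; red points are called genes, grey points are not, black bars are list medians and the dotted line is the size of 1. Melanin synthesis and smooth muscle are called throughout, and corneal epithelium has the lowest median.

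Smooth muscle. All 10 genes of smooth muscle contraction were called (background 1.31%), with a list median of 2.80 and differences from 1.32 to 4.64. The rule did not name these genes, but the corneas are the same ones, so this too is a description. Acta2, smooth muscle actin, had 4464 and 7162 reads in the pair and 97 and 33 in the others, a ratio of 92.9. Myh11, the smooth muscle myosin heavy chain, had 8745 and 12380 reads against 219 and 150, a ratio of 58.6. Cnn1, which encodes calponin, had 572 and 546 against 3 and 2, at least 187-fold higher, and Des, desmin, 473 and 552 against 8 and 3. Myocd, the coactivator that switches on the smooth muscle programme and is on no list, had a difference of 2.58 and was named after its value was seen. Of the skeletal muscle list, none of 10 genes was called, and its median was 0.08, or -0.01 without replicate 2. Ckm, the muscle creatine kinase, had 36 and 96 reads against 0 and 8, a difference of 0.83. The list does not cover all genes of striated muscle. Ttn (3.47) and Mybpc1 (2.48), muscle genes on no list, were called and were named after their values were seen.

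Ciliary body and iris. Of 17 genes of the ciliary and iris epithelium, 6 were called higher and none lower, with a median of 0.39. The median was 0.16 without replicate 2, where the number called was also 6, and 9 of the 17 were marked. Zic1 and Mab21l2, factors of the early eye, had 449 and 745 reads against 3 and 0, and 384 and 521 against 9 and 3. Bmp4, a ligand of ciliary body development, had 251 and 355 against 2 and 3, and the bicarbonate transporter Slc4a5 316 and 730 against 36 and 29. Mfrp, a membrane protein of ciliary and retinal pigment epithelium and among the 15 largest increases, had 1099 and 1993 reads against 7 and 2, with 155, 26, 108 and 21 in C57BL/6N. Kcnj13, a potassium channel gene of the same epithelia, had a difference of 3.37 and was named after its value was seen. Genes outside the pigment and muscle programmes of the anterior uvea thus stood in the same corneas.

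The retinal lists did not show this pattern at the size used. None of 8 genes of the retinal pigment epithelium, none of 10 photoreceptor genes and none of 7 genes of retinal neurons and glia was called, with medians of 0.07, 0.11 and 0.01. Rpe65, the visual cycle isomerase that marks retinal pigment epithelium, had 1 read in replicate 1 and 0 in the other 7 corneas, and it did not pass the filter. Otx2, a factor of retina and its pigment epithelium, had 32 and 113 reads against 4 and 3, a difference of 0.88. Rpe65 and Otx2 were named after their values were seen.

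Vessels, nerve and lymphatic genes. Of 10 genes of blood vessel endothelium, 5 were called higher and none lower, with a median of 1.05. Flt1, a receptor for VEGF-A, had 269 and 636 reads in the pair and 1 and 0 in the others, at least 156-fold higher. Cdh5, the endothelial cadherin, had 197 and 478 reads against 6 and 12, Tek 84 and 131 against 0 and 0, and Vwf 134 and 205 against 21 and 25. Kdr was not called: it had 555 reads in replicate 2 and 1130 to 1672 in the other BALB/cN corneas. Rgs5, a gene of pericytes and smooth muscle and among the 15 largest increases, had 637 and 1406 reads against 3 and 1, at least 350-fold higher.

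On the lymphatic list, Reln was the called gene of 4 past the filter, with 254 and 1199 reads against 16 and 9; it is also made by neurons. Of 10 nerve sheath genes, 4 were called higher and none lower, with a median of 0.80. S100b, a calcium-binding protein of glia, had 239 and 608 reads against 0 and 4, so replicate 4 was more than 2 times replicate 1. Sox10 is on this list too, and the sodium channel gene Scn7a differed by 1.0 between replicates 2 and 3, more than the gap of 0.70.

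Proline-rich proteins and secreted factors. The largest increase of all was Prb1, one of a cluster of genes for proline-rich proteins, which are known as secreted proteins of saliva. It had 4300 and 8958 reads in the pair and 16 and 12 in the others, a difference of 6.16 and a ratio of 489. Prb1 (chr6:132206795-132210521), Gm4736 (chr6:132114576-132117662), Prpmp5 (chr6:132311590-132314757) and Gm8882 (chr6:132361041-132364134) were all among the 15 largest increases and all lie on the minus strand (GRCm38). Gm4736 had 2888 and 5840 reads against 32 and 2, Prpmp5 1997 and 4645 against 20 and 2, and Gm8882 780 and 1516 against 4 and 1. In each of these genes replicate 4 had about 2 times the reads of replicate 1. Their repeats are similar, and Gm4736 is annotated as a pseudogene, so reads could be split between copies. Another neighbour, the pseudogene Prb3-ps, had 52 and 94 reads against 0 and 0 and was named after its value was seen. In C57BL/6N, replicate 1 had 293 reads of Prb1 and the other 3 corneas had 3, 0 and 1.

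The rest of the 15 largest increases were Ptgds and Edn3. Ptgds, a prostaglandin D synthase of meninges and ciliary epithelium that is also on the keratocyte list, had 4493 and 11020 reads against 56 and 9, a ratio of 253. It was also high in C57BL/6N, with 1070, 2040, 573 and 158 reads. Edn3, the endothelin that acts on melanocyte precursors, had 1407 and 1776 reads against 6 and 17, a ratio of 138. Further increases named after their values were seen were Enpp2, which makes lysophosphatidic acid (3.63), the BMP antagonist Grem1 (3.42), the T-box factor Tbx20 (3.34), lipoprotein lipase Lpl (2.99) and the enkephalin precursor Penk (2.67).

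Replicates 1 and 4 did not carry these groups in the same proportion. Of the 334 called genes, 313 were higher in replicate 4 and 21 in replicate 1. Over all 25402 genes examined, 11317 were higher in replicate 1 than in replicate 4. The 21 included all 10 called crystallins, and Mip and Lgsn, with 9 genes off both lens lists. All 14 called pigment genes, all 10 smooth muscle genes and all 5 vessel genes were higher in replicate 4. The lens crystallin list took 408 RPM in replicate 1 and 198 in replicate 4, against 63.6 and 81.3 in replicates 2 and 3. The melanin synthesis list took 407 and 898 against 5.83 and 3.04, and smooth muscle 785 and 1240 against 152 and 132. The crystallin sum includes the widely made Cryab, which was not called. Cryab held 4711 of 16432 recovered reads of that list in replicate 1 and 3814 of 7257 in replicate 4. In replicates 2 and 3 it held 2337 of 2617 and 2963 of 3150, so nearly all. Replicate 1 also had the highest values of 3 immediate early genes, named after their values were seen. Fosb had 2167 reads there against 191 to 366 in the other 3 corneas, Atf3 220 against 10 to 25 and Fos 3051 against 1273 to 1496. Of the 10 genes on the list for a response to dissection, none was called.

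**Figure D3:**
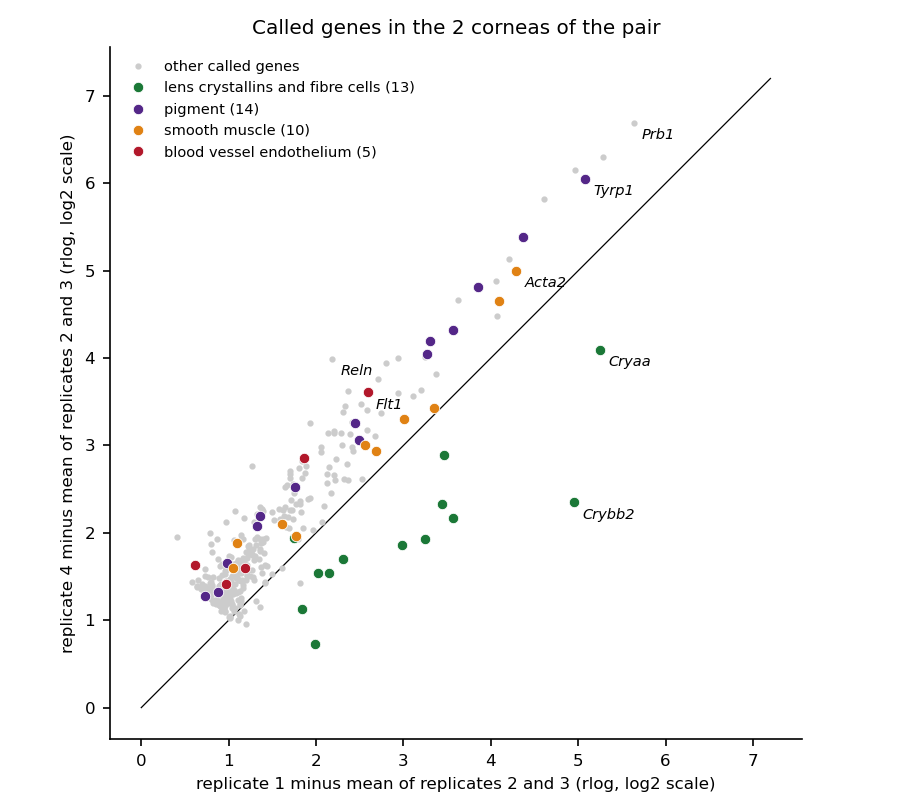
Each of the 334 called genes by its value in replicate 1 (x axis) and replicate 4 (y axis), both minus the mean of replicates 2 and 3 (rlog, log2 scale), with the line of equality. The 13 called lens crystallin and fibre genes lie below the line except Bfsp2, whereas the pigment, smooth muscle and vessel genes lie above it.

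The same genes varied among the C57BL/6N corneas, which the choice of the pair did not use. Of the 10 called crystallins, 9 had their highest C57BL/6N value in replicate 3, and so had 9 of the 10 smooth muscle genes. Some of these crystallin values rested on few reads. In C57BL/6N replicates 3 and 1, Cryba1 had 11 and 14 reads (rlog 4.51 and 4.50), Cryba2 6 and 0 and Crybb1 7 and 3. All 3 melanin synthesis genes were highest in replicate 1. Over all 334 genes, the lowest C57BL/6N value was in replicate 4 for 233, and the highest was in replicate 1 for 145, replicate 3 for 94, replicate 2 for 91 and replicate 4 for 4. In 297 genes all C57BL/6N corneas lay below both corneas of the pair, and in 277 the C57BL/6N mean lay between the pair means. The 334 genes were selected for high values in the pair, which by itself favours lower C57BL/6N values. C57BL/6N replicates 3 and 4 were also stroma-poor, and stromal genes are among the 334. No share over all genes is given for these counts, so they are a description.

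Replicate 2 was poor in stromal transcripts, so the other pair was not uniform. Kera, the keratan sulfate proteoglycan keratocan, had 33879 and 29697 reads in replicates 1 and 4, 28607 in replicate 3 and 1783 in replicate 2. C57BL/6N replicates 3 and 4 had still fewer, 196 and 553 reads. Kera and Dcn, another stromal proteoglycan, were called with 1.60 and 1.42, but replicates 2 and 3 differed by 3.04 and 2.55. Genes in which replicates 2 and 3 differed by more than the gap between the pairs were marked, which applied to 38 of the 334 called genes, and in 37 of these replicate 2 was below replicate 3. Of 18 stromal genes, 16 were marked, and 2 of the 3 called. Against replicate 3 alone, 282 genes were called higher, 270 of them among the 334, but 5 of the 38 marked ones. The counts of 10 crystallins, 3 melanin enzymes, 8 melanosome genes and 10 smooth muscle genes were the same without replicate 2, whereas stromal calls went from 3 to 1. The part of the stroma in the other called genes was not tested.

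**Figure D4:**
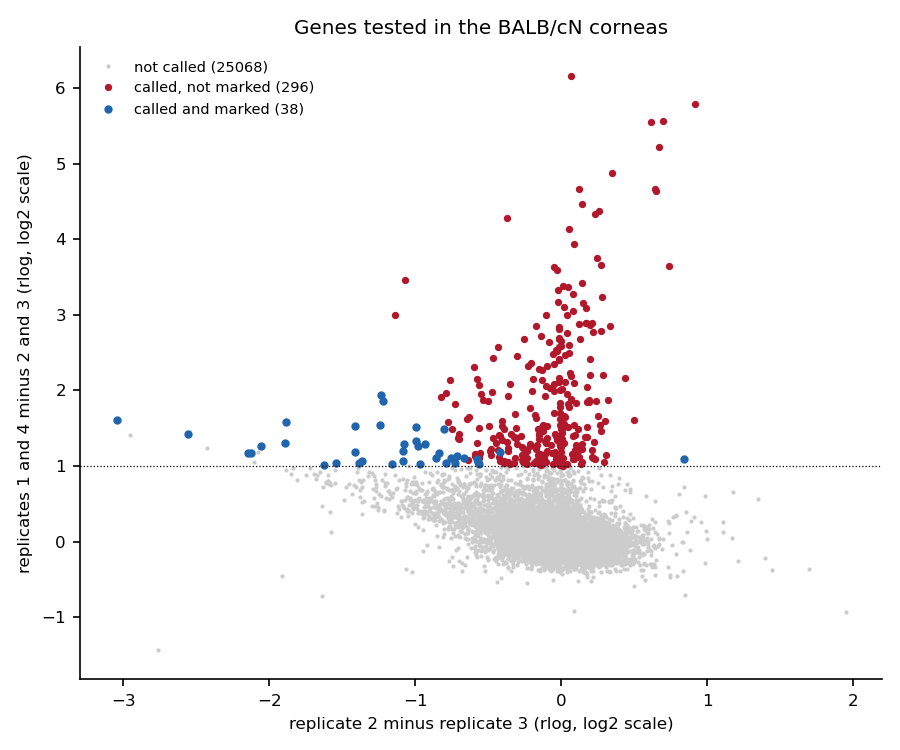
Difference between the pairs (y axis) against the difference between replicates 2 and 3 (x axis), both in rlog on a log2 scale, for the 25402 genes examined; red points are called genes, blue points are called genes marked for the spread between replicates 2 and 3. The 38 marked genes lie mostly at the left, with replicate 2 below replicate 3. Among the largest increases, Prb1 lies near 0 on the x axis (0.07 apart). Gm4736 (0.92 apart) and Tyrp1 (0.69 apart) lie to the right, and Edn3 (0.37 apart) to the left.

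No list of the corneal layers held a called gene apart from the stroma. None of 12 epithelial, 8 endothelial, 8 conjunctival, 9 trabecular, 11 macrophage, 4 red blood cell and 13 mitochondrial genes was called. Epithelial genes had a median of -0.11, and 7 of the 12 were completely separated and lower in the pair (background 18.5%). Krt12, the keratin of the corneal epithelium, was at 19.61 and 19.68 in the pair and 19.84 and 19.70 in the others. Macrophage genes had a median of 0.63, and 8 of 11 were separated and higher (background 21.6%), but 8 of the 11 were marked and the median was 0.28 without replicate 2. No completely separated gene reached the size in the downward direction. The largest separated decrease was 0.92 on the rlog scale, in Stfa1, a cystatin, with 11 and 0 reads in the pair and 58 and 47 in the others; it was named after its value was seen. On the scale of recovered reads, where low genes are not shrunk, 2291 of 20596 genes were called higher and 534 lower. With a mean of at least 20 normalized reads, these were 939 and 37 of 13116 genes.

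Comparing the strains with and without the pair asked how far a strain difference rested on these corneas. With limma on all 8 corneas, 718 genes (2.83%) were higher and 740 (2.91%) lower in BALB/cN, with the adjusted p-value at or below 0.01. Of the 334 genes called in the pair, 1 passed, and none of the 16 crystallins, 3 melanin enzymes or 10 smooth muscle genes did; at an unadjusted p under 0.05 these were 0, 0 and 1. The 334 genes were selected for a split among the BALB/cN corneas, which widens their error in this fit, so these low counts follow from the selection and carry no evidence of their own. Cryaa differed by 1.95 ± 1.16 (limma standard error, n = 4 and 4, adjusted p = 0.351) and Tyr by 0.75 ± 0.94 (adjusted p = 0.677). Without replicates 1 and 4, 219 genes (0.862%) were higher and 228 (0.898%) lower, and 3 of the 334 were lower. Without replicates 2 and 3, which leaves the same number of corneas, 494 (1.94%) were higher and 335 (1.32%) lower. Of the 334 genes, 117 were then higher and 0 lower. Over whole lists, 7 of 16 crystallins, 2 of 3 melanin enzymes, 6 of 13 melanosome genes and 5 of 10 smooth muscle genes were higher. One of these melanosome genes, Mlph, is not among the 334. The corneas left in or out here were selected on such genes, so their p-values carry no independent evidence. With an empirical null for the p-values, 0 genes passed in each of the 3 fits, and the number of calls without replicates 1 and 4 was 447, or 56 when replicate 2 was left out as well.

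The direction of single strain differences turned with the corneas used. For Tyrp1, BALB/cN minus C57BL/6N was 0.60 ± 1.35 with all corneas, -2.19 ± 0.60 without replicates 1 and 4 and 3.38 ± 0.59 without replicates 2 and 3. For Acta2 the values were 0.72 ± 1.14, -1.60 ± 0.56 and 3.04 ± 0.54, and for Ptgds -0.16 ± 1.3, -2.76 ± 0.65 and 2.45 ± 0.67. None of these 3 genes passed in any of the 3 fits. Cryaa was at -0.39 ± 0.56 without the pair and at 4.28 ± 0.58 with the pair alone. Mlph, which carries melanosomes, was higher in BALB/cN in the fit of all corneas, by 1.17 ± 0.20 (limma adjusted p = 0.00481), and by 0.77 ± 0.10 without the pair (adjusted p = 0.0103). Of 1458 genes called with all corneas, 437 (30.0%) were also called without replicates 1 and 4, which is 97.8% of that shorter list. Without replicates 2 and 3, 627 (43.0%) were also called, which is 75.6% of that list. These fits share the C57BL/6N corneas.

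**Figure D5:**
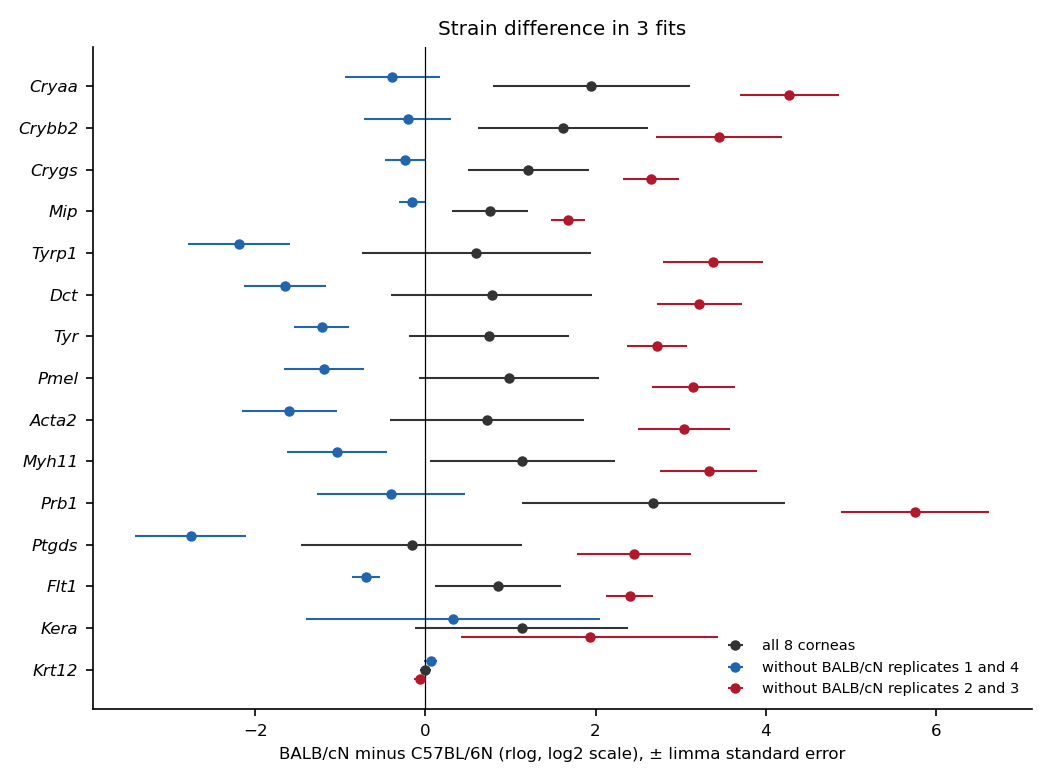
Strain difference (BALB/cN minus C57BL/6N, rlog on a log2 scale, x axis) of 15 genes with its limma standard error, fitted on all 8 corneas (black), without BALB/cN replicates 1 and 4 (blue) and without replicates 2 and 3 (red). Red and blue points lie on opposite sides of 0 for the lens, pigment, smooth muscle and Prb1 genes shown, and Krt12 stays near 0.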

How the data were processed

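The authors trimmed paired reads of 100 bases, aligned them with TopHat2 2.1.1 to GRCm38 with the variants of each strain built in, counted them per Ensembl gene with HTSeq 0.7.1 and deposited the log2-scale rlog values that DESeq2 1.30 gave, written with decimal commas (tool names per the labels and methods). No raw counts were used here, and 0 columns were left unused.

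Pairs were described without a test. The strain fits used limma 3.58.1 under R 4.3.3 (lmFit and eBayes with a variance trend, Benjamini-Hochberg adjustment, threshold 0.01). Reads were recovered by inverting the rlog model, with constants fitted to published mean counts of 1759 genes, a step that limits their independence; 94.5% of values came within 0.1 of a whole number at means of 20 to 1000 reads and 24.9% above 5000, against 19.9% after a random fraction was added. A ratio against corneas with 3 reads or fewer each is a bound computed against 3 reads per library, and since PCR copies molecules, bounds cover counting error only. No 2 corneas of a strain agreed within sampling noise (chi-square per gene of 10.8 to 94.6). Positions came from GENCODE vM21 (GRCm38) and sequences from RefSeq.

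The members and lists were chosen with earlier results of these data known. Named were Tyr, Tyrp1, the members of the lens and pigment lists, up to 4 called members of every other list, and, of the called genes that were not marked, the 15 that rose most and the 15 that fell most; none fell. Some members of these lists are not reported here. Genes said to be named after their values were seen are additions. The scripts were tested on simulated data of 25402 genes, of which 200 were changed, with sizes of 2 to 3. The rule for the BALB/cN pairs called all 200 with the right sign, but it also called 140 unchanged genes. The strain fit on all 8 corneas called 195 of the 200 with the right sign and 1 unchanged gene. A call by the pair rule alone therefore does not establish a change, and the share of false calls in the real data was not tested. Alternatives were other filters, scalings, sizes and variance models, recovered reads, the replicate number as a block and each cornea left out. Scripts ran under Python 3.11.15 with pandas 2.3.3, numpy 2.4.6 and matplotlib 3.10.9.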

Additional observations from a re-analysis of the deposited data

Results flagged for a closer look

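Among the genes and lists named, 232 groups of 4 corneas were examined for a cornea far from the other 3 of its strain, by Dixon's ratio of the gap to the range, and 25 (10.8%) held one. Chance alone flags about 0.05 of such groups. All values are rlog values.

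BALB/cN replicate 1 stood apart in Atf3 (6.05, others 4.44 to 4.69), Cryge (1.39), Crygf (3.08), Foxe3 (1.92) and Prox1 (5.25), and in the mean of the photoreceptor list (3.14). BALB/cN replicate 2 stood apart in Dcn (12.91), Ednrb (11.21), Kera (11.32), Lum (9.57) and Pax6 (15.76), and in the mean of the corneal endothelium list (12.32). It was the lowest cornea in all of these but Pax6.

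C57BL/6N replicate 3 was high in Cryba2 (3.73), Crybb3 (6.97), Crygb (5.67, others 3.97 to 4.10), Crygc (4.62), Crygf (2.46) and Des (5.99). C57BL/6N replicate 1 was high in Cryab (11.83), Gm4736 (5.91), Gm8882 (4.61) and Prb1 (7.90, others 4.85 to 4.91). In C57BL/6N replicate 2, Stfa1 was low (8.43) and the mean of the red blood cell list high (2.47), and in replicate 4 Cryge was at 1.23.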

How the results depend on the processing

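The number of genes called higher in the pair (334) became 2291 with recovered reads, 1031 at a size of at least 0.5 and 96 at a size of at least 2, and lay between 266 and 578 when a cornea was left out. The number called lower (0) became 2 after centring each cornea on its median, 2 after quantile normalization, 534 with recovered reads and 9 at a size of 0.5, and 1 to 4 when a cornea was left out. Centring shifted the median of all genes by -0.134. With replicates 2 and 3 at least 1 apart as the mark, 22 called genes were marked in place of 38. With recovered reads the medians were 2.97 for crystallins, 8.09 for melanin synthesis, 3.88 for the melanosome and 5.86 for smooth muscle, and a stricter filter on the mean gave 2.42 for crystallins. Leaving out a cornea gave 1.62 to 2.17, 4.37 to 5.38, 0.98 to 1.66 and 2.62 to 2.97 for these lists. These 4 medians were above 0 under every alternative run. For crystallins and melanin genes this follows from the choice of the pair and carries no evidence of its own. The stromal median went from 0.50 to -0.01 without replicate 2. The pair difference of Lum, a stromal proteoglycan named after its value was seen, went from 1.41 to between -0.07 without replicate 2 and 2.89 without replicate 3.

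The 1458 strain calls on all corneas became 958 after centring, 2842 at an adjusted p of 0.05 and 953 to 1163 with a cornea left out. The 447 calls without replicates 1 and 4 became 706 with robust eBayes, 1201 at 0.05 and 56 to 242 with another cornea left out, and the 829 calls without replicates 2 and 3 became 2362 and 117 to 492. Where 1 BALB/cN cornea was left, it was assumed to vary like the C57BL/6N corneas. An empirical null gave 0 calls in each fit. With the replicate number as a block, the counts were 554, 0 and 0, with 4898, 1756 and 3594 genes at an unadjusted p under 0.05. The numbers share no stated origin, and same-numbered corneas deviated from their strain means with correlations of 0.305, -0.53, -0.203 and -0.454. The cause of these changes was not tested. Shrinkage on the rlog scale and 2 corneas a side limit what can be shown for genes with few reads.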
